A study of Mus musculus with 8 samples.

Results

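The genes that carry the TGF-β signal from the cell surface to the nucleus, and the genes that restrain it, were examined in induced regulatory T cells (iT_regs_) with and without a floxed *Tdrd3* allele. The members were chosen by name and comprised 10 of the 11911 genes listed in the count table: the receptor genes *Tgfbr1*, *Tgfbr2* and *Tgfbr3*, the signal transducers *Smad2*, *Smad3* and *Smad4*, and the inhibitors *Smad7*, *Ski*, *Skil* and *Smurf2*. All 10 were among the 11317 genes that passed the filter on low counts and were tested. TGF-β binds the type II receptor, which phosphorylates the type I receptor, and the type I receptor then phosphorylates SMAD2 and SMAD3. These join SMAD4 and enter the nucleus, where SKI and SKIL hold back transcription, while SMAD7 and SMURF2 act at the receptor in negative feedback. In naïve CD4+ T cells, TGF-β together with T cell receptor stimulation induces *Foxp3*, the transcription factor that defines T_regs_.

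Ribosomal RNA-depleted total RNA was sequenced from 8 iT_reg_ cultures of spleen T cells, 4 of each genotype. The donors of the control cultures, labelled WT, had the genotype *Foxp3 YFP-Cre*. Those of the other cultures, labelled KO, had the genotype *Tdrd3 fl/fl/Foxp3 YFP-Cre* and are called KO below, so that the *Foxp3 YFP-Cre* allele was common to both and the floxed *Tdrd3* alleles were not. Naïve CD4+ cells of both genotypes received TGF-β, hamster antibodies to CD3 and CD28, and neutralizing antibodies to IFN-γ and IL-4, and were harvested after 36 hours. Ages of the mice were not given in the sources used here. Cre is made from the *Foxp3* locus, so deletion of *Tdrd3* could begin only once a cell transcribed *Foxp3*, and no sort for YFP+ cells is described before RNA isolation. These libraries include no culture without TGF-β and no earlier time point, so the comparison asks whether the RNA of the pathway's components differed by genotype under continued TGF-β, and not whether it responded to TGF-β. Counts of the listed genes summed to between 13258239 and 16001676 per library. Values are given as normalized CPM, counts scaled to the TMM-adjusted library size of the tested genes. Log2 fold changes are KO relative to control. In these bulk samples fewer cells of a type and less RNA per cell cannot be told apart.

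*Tdrd3* RNA, counted over the whole gene and not over the floxed exons, was at 18.8, 15.1, 9.95 and 17.7 normalized CPM in controls 1 to 4 and at 13.7, 10.7, 12.9 and 11.1 in KO replicates 1 to 4. The library labelled WT3 had the lowest value of all 8, and the other 3 controls lay above every KO library. With all libraries the log2 fold change of *Tdrd3* was −0.35 (edgeR unadjusted P = 0.0370, adjusted p = 0.496, exact permutation test p = 0.229). Without the library labelled WT3 it was −0.51 (edgeR unadjusted P = 4.84e-04, adjusted p = 0.115). That library had the lowest *Tdrd3*, so leaving it out had to enlarge the difference. Without control replicate 1 the log2 fold change was −0.23 (edgeR unadjusted P = 0.166). Over 17 alternatives the unadjusted P of *Tdrd3* was below 0.05 in 11, and its adjusted p ranged from 0.115 to 1.00. The library labelled WT3 also stood apart in genes of other lymphocytes: *Cd8a* was at 11.3 normalized CPM there and at no more than 1.37 in any other library, and *Gzmb*, a cytotoxic granule protease, was at 9.25 there and at no more than 2.76 elsewhere. KO replicates 1 and 4 formed a branch of their own when the libraries were clustered on all tested genes by average linkage (1 − Spearman distance). KO replicates 2 and 3 fell in the other branch with all controls, so the branches did not follow genotype. The library nearest to controls 3 and 4 was KO replicate 2.

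No member of the pathway core differed between genotypes after adjustment over all tested genes. Of the 10 members, 0 reached an adjusted p below 0.05 by the quasi-likelihood test of edgeR, against 0.265% of all tested genes, 30 genes of which 7 were higher and 23 lower. DESeq2 and voom also gave 0 of 10. At an unadjusted P below 0.05, 2 of the 10 members were past the threshold by edgeR, against 9.3% of all tested genes. Both of them, *Smad3* and *Tgfbr3*, were higher in KO iT_regs_, a direction and threshold that 4.38% of tested genes met. The unadjusted count was 2 by DESeq2, which were *Smad3* and *Ski*, and 3 by voom, which were *Smad3*, *Tgfbr3* and *Ski*. The share of all tested genes at this threshold is not given here for these 2 tools. With a fold change of at least 1.2 added, 359 genes of the whole table passed by DESeq2 and 474 by voom, against 393 by edgeR. *Smad3* was the 1 member that also reached a fold change of at least 1.2, the cutoff of a figure legend of the study, which 3.47% of tested genes met. At a fold change of 1.5, the cutoff in the study's methods, 0 members were past the threshold by edgeR, against 1.3% of tested genes. It was also the 1 member whose libraries did not overlap between genotypes, with all KO values above all control values. Such a separation occurred in 2.25% of tested genes with KO higher and in 2.63% with KO lower. Over the members, 5 fold changes were positive and 5 negative, and their median log2 fold change was 0.0043 beside 0.0013 for all tested genes. With 10 members, a count of 1 or 2 gives only a coarse share to set beside these percentages.

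**Figure D1:**
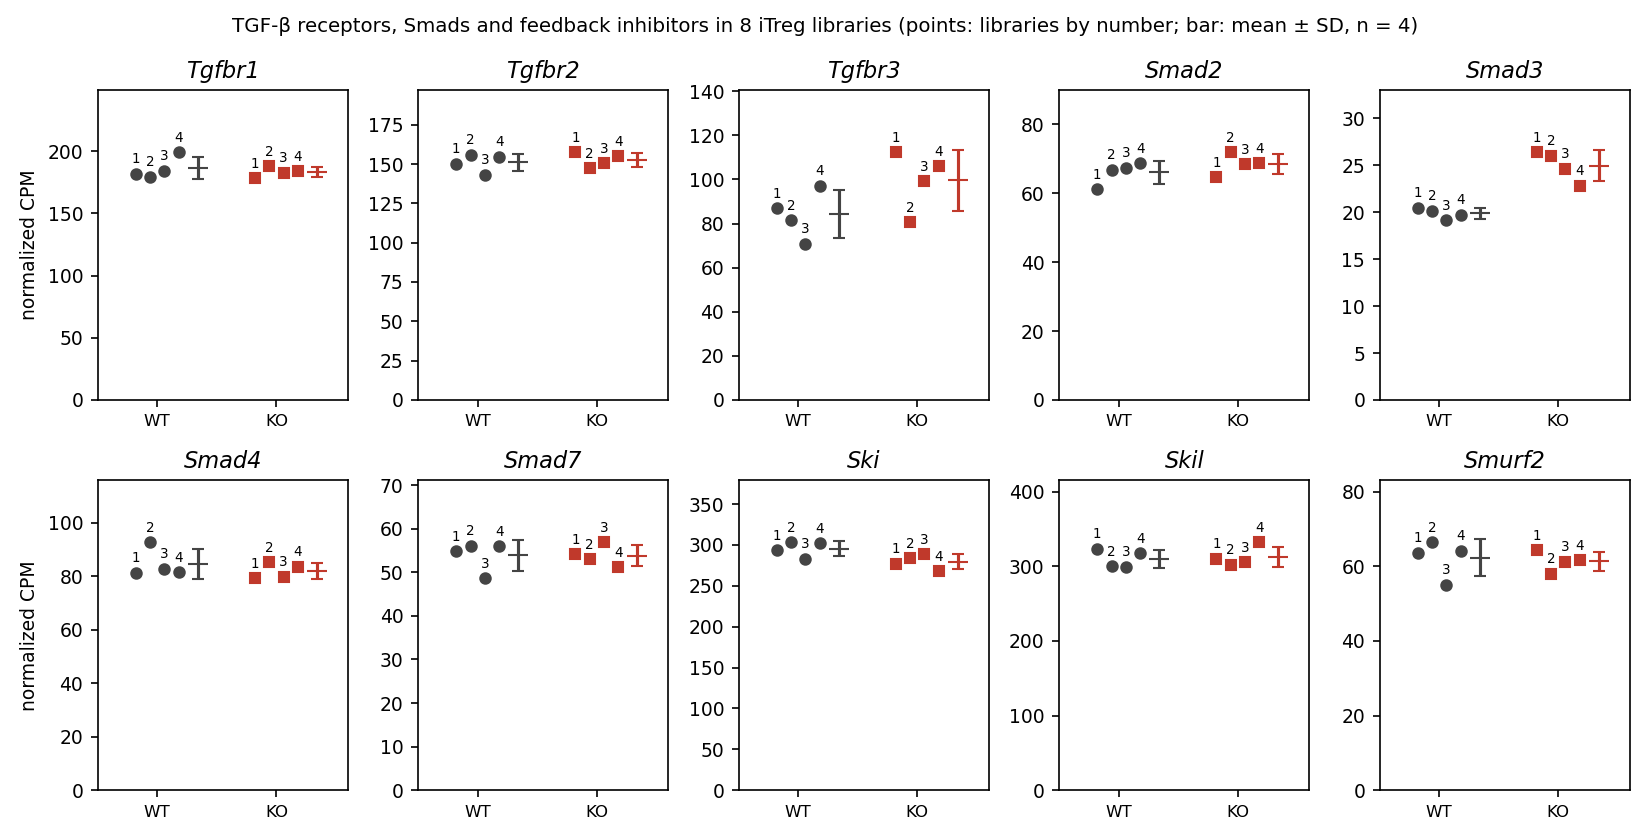
Normalized CPM (vertical axis, from 0) of the 10 pathway genes in each iT_reg_ library, numbered by replicate, with circles for controls and squares for KO and a bar for the mean ± SD of 4 libraries. *Smad3* has its 4 KO libraries, from 22.8 to 26.4, above its 4 controls, from 19.1 to 20.5, and in the other 9 genes the genotypes overlap.

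Among the receptors, the means of the signalling pair differed between genotypes by less than the spread between libraries, and the co-receptor was more variable. *Tgfbr1* (ENSMUSG00000007613, chromosome 4 of GRCm39 from 47353222 to 47414931, plus strand) encodes the type I receptor kinase that phosphorylates SMAD2 and SMAD3. It had 182, 179, 184 and 199 normalized CPM in controls 1 to 4 and 178, 188, 183 and 184 in KO replicates 1 to 4. All values but that of control replicate 4 lay between 178 and 188, and the genotypes overlapped. On the log2 scale *Tgfbr1* differed by −0.02 (95% interval −0.11 to 0.07, edgeR adjusted p = 0.925). *Tgfbr2* (ENSMUSG00000032440, chromosome 9 from 115913361 to 116004428, minus strand) encodes the type II receptor kinase that binds the ligand first. Its libraries ranged from 143 to 156 in controls and from 147 to 158 in KO iT_regs_, again overlapping. The corresponding log2 fold change was 0.02 (95% interval −0.08 to 0.11, edgeR adjusted p = 0.951).

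*Tgfbr3* (ENSMUSG00000029287, chromosome 5 from 107254436 to 107437495, minus strand) encodes betaglycan, a co-receptor without kinase activity that presents ligand to the type II receptor. Control libraries 1 to 4 had 86.9, 81.6, 70.9 and 97.1 normalized CPM, and KO libraries 1 to 4 had 112, 80.7, 99.1 and 106. KO replicates 1, 3 and 4 lay above every control, while replicate 2 lay below 3 of the controls, and the ranges overlapped (two-sided exact permutation test, p = 0.143). The lowest control was the library labelled WT3. Controls averaged 84.1 ± 10.9 and KO iT_regs_ 99.6 ± 13.7 (SD, n = 4 each). By edgeR the difference was 0.24 on the log2 scale with a standard error of 0.0900 (95% interval 0.05 to 0.43), at an unadjusted P of 0.0148 and adjusted p of 0.368. *Tgfbr3* had the largest relative spread of the 10 members within a genotype, with a coefficient of variation of 12.9% among controls and 13.7% among KO libraries, where counting error alone gives 2.76%. Its result depended on single libraries. Without KO replicate 2 the log2 fold change was 0.33 and the adjusted p 0.0343 (edgeR), in a fit where 162 genes were past the threshold. Without the library labelled WT3 it was 0.17 with an unadjusted P of 0.0644, without KO replicate 1 it was 0.18 with an unadjusted P of 0.0738, and without KO replicates 1 and 4 it was 0.09 with an unadjusted P of 0.366 (edgeR). DESeq2 on all libraries gave an unadjusted P of 0.0733. The adjusted p ranged from 0.0343 to 1.00 over 17 alternatives.

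Of the receptor-regulated Smads, *Smad3* was higher in every KO library and *Smad2* was not. *Smad3* (ENSMUSG00000032402, chromosome 9 from 63554049 to 63665276, minus strand) encodes a DNA-binding Smad that acts at an enhancer of *Foxp3* in T cells. It had 20.5, 20.2, 19.1 and 19.8 normalized CPM in controls 1 to 4, and 26.4, 26.0, 24.6 and 22.8 in KO replicates 1 to 4. The controls lay close together, and the lowest KO library, replicate 4, still exceeded the highest control, replicate 1, by more than the whole range of the controls. Controls averaged 19.9 ± 0.575 and KO iT_regs_ 25.0 ± 1.63 (SD, n = 4 each), a fold change of 1.26 with a 95% interval of 1.12 to 1.41. On the log2 scale the difference was 0.33 with a standard error of 0.0803 (95% interval 0.16 to 0.50). The unadjusted P of 6.08e-04 ranked 75 of 11317 genes, and the adjusted p of 0.0913 missed the threshold (edgeR). The exact permutation test gave p = 0.0286, the smallest it can give with 4 libraries against 4.

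Without the library labelled WT3 the log2 fold change of *Smad3* was 0.31, and without KO replicates 1 and 4 it was 0.35. Over 17 alternatives the log2 fold change ranged from 0.30 to 0.37 and the unadjusted P was below 0.05 in all 17, whereas the adjusted p, from 0.0629 to 0.887, was below 0.05 in 0 of them. The controls varied less than counting alone would give, with a coefficient of variation of 2.89% where their 273 to 299 counts per library give about 5.95%, and the spread of the KO libraries was 6.51%. All estimated counts of *Smad3* were whole numbers, and its exons overlap those of no other gene in the GENCODE annotation used here.

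*Smad2* (ENSMUSG00000024563, chromosome 18 from 76374651 to 76444034, plus strand) encodes the other receptor-regulated Smad of the TGF-β branch. Its values were 61.1, 66.9, 67.4 and 68.7 normalized CPM in controls 1 to 4 and 64.7, 72.0, 68.5 and 68.7 in KO replicates 1 to 4. The lowest library of each genotype was its replicate 1, the highest was KO replicate 2, and the genotypes overlapped. EdgeR placed the log2 fold change of *Smad2* at 0.05 (95% interval −0.06 to 0.17, adjusted p = 0.861). It was 0.017 without control replicate 1, 0.027 without KO replicate 2 and 0.089 without KO replicates 1 and 4. The ratio of *Smad3* to *Smad2* RNA per kilobase of exon was 0.650, 0.585, 0.552 and 0.558 in controls and 0.793, 0.702, 0.699 and 0.645 in KO libraries. By this ratio, KO replicate 4 lay just below control replicate 1 and the other 3 KO libraries lay above every control. Whether the 2 Smads differed in their response to genotype was not tested.

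*Smad4* (ENSMUSG00000024515, chromosome 18 from 73772080 to 73836851, minus strand) encodes the common partner that SMAD2 and SMAD3 share with the Smads of the BMP branch. Its libraries had 81.3, 92.8, 82.8 and 81.4 normalized CPM in controls and 79.2, 85.2, 79.9 and 83.5 in KO iT_regs_. Control replicate 2 was the high value, and the other 7 libraries lay between 79.2 and 85.2. Its log2 fold change was −0.04 (95% interval −0.16 to 0.07, edgeR adjusted p = 0.883), and it was 0.0026 without control replicate 2.

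The means of the feedback inhibitors differed between genotypes by less than the spread between libraries. *Smad7* (ENSMUSG00000025880, chromosome 18 from 75500600 to 75529006, plus strand) is itself a transcriptional target of the pathway, and its protein competes with SMAD2 and SMAD3 at the type I receptor. It had 54.8, 56.1, 48.6 and 55.9 normalized CPM in controls and 54.2, 53.0, 56.9 and 51.2 in KO libraries. The lowest and the highest value came from different genotypes, with the library labelled WT3 lowest and KO replicate 3 highest. The means were 53.9 ± 3.53 and 53.8 ± 2.38 (SD, n = 4 each), a log2 fold change of −0.0017 (95% interval −0.13 to 0.13) with an edgeR adjusted p of 0.997. *Smurf2* (ENSMUSG00000018363, chromosome 11 from 106710892 to 106811541, minus strand) encodes the ubiquitin ligase that SMAD7 brings to the receptor. It ranged from 55.1 to 66.4 in controls, lowest in the library labelled WT3, and from 58.0 to 64.3 in KO iT_regs_. Its log2 fold change was −0.02 (95% interval −0.16 to 0.11, edgeR adjusted p = 0.948).

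The corepressors *Ski* and *Skil* bind nuclear Smad complexes and recruit histone deacetylases. *Ski* (ENSMUSG00000029050, chromosome 4 from 155238532 to 155307049, minus strand) had 293, 303, 283 and 302 normalized CPM in controls and 277, 284, 289 and 267 in KO libraries. Its 2 highest libraries were controls 2 and 4, its 2 lowest were KO replicates 1 and 4, and the middle of the range held both genotypes (exact permutation test, p = 0.0857). *Ski* had a log2 fold change of −0.08 (95% interval −0.17 to 0.0020), at an edgeR unadjusted P of 0.0551 and adjusted p of 0.553. The unadjusted P was below 0.05 in 5 of 17 alternatives. It was 0.0215 without the library labelled WT3 and 0.0365 without KO replicate 3 (edgeR), 0.0426 by DESeq2 and 0.0317 by voom. In the other direction, it was 0.173 without KO replicate 4 and 0.374 without KO replicates 1 and 4 (edgeR). The log2 fold change without KO replicates 1 and 4 was −0.047. The lowest adjusted p over the 17 was 0.349, by voom. *Skil* (ENSMUSG00000027660, chromosome 3 from 31149207 to 31176726, plus strand) had 323, 300, 300 and 317 in controls and 310, 302, 305 and 332 in KO libraries. KO replicate 4 was highest for *Skil* and lowest for *Ski*. *Skil* differed by 0.01 on the log2 scale (95% interval −0.08 to 0.10, edgeR adjusted p = 0.962).

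For the 8 members other than *Smad3* and *Tgfbr3*, the 95% intervals of the fold change all lay between 0.892 and 1.13, each interval taken singly. Missing the threshold does not show that these genes were equal in the 2 genotypes, but larger differences than these bounds fall outside the intervals. The fold changes of *Tgfbr1*, *Tgfbr2*, *Smad4*, *Smad7*, *Skil* and *Smurf2* were so close to 0 that leaving out 1 library turned the sign of each.

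Some of these genes share exonic sequence with other annotated genes, and no source used here states whether the counting used strand. The exons of *Tgfbr1* overlap *Gm32435* and those of *Tgfbr2* overlap *Gm4668*, both long noncoding RNA genes on the opposite strand. *Smurf2* shares exonic bases with the protein-coding gene *Cep95* on the opposite strand and also overlaps the microRNA gene *Gm56268*, and *Tgfbr3* overlaps *Gm43422* on its own strand. Reads from these stretches could have been assigned to either gene. *Smad2*, *Smad3*, *Smad4*, *Smad7*, *Ski* and *Skil* had no such overlap.

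Compared per length, as normalized CPM per kilobase of annotated exon averaged over the 8 libraries, the corepressor *Ski* had the highest level of the members at 47.5 and *Smad3* the lowest at 3.87, a ratio of 12.3. Between them came *Skil* at 30.8, *Tgfbr1* at 27.9, *Tgfbr2* at 17.3, *Tgfbr3* at 13.4, *Smad4* at 11.5, *Smad7* at 11.3, *Smurf2* at 6.58 and *Smad2* at 5.98. In this order the ranges over the 8 libraries overlapped between *Skil* and *Tgfbr1*, *Tgfbr2* and *Tgfbr3*, *Tgfbr3* and *Smad4*, *Smad4* and *Smad7*, and *Smurf2* and *Smad2*, so these neighbours are not ordered beyond their spread. The ends of many genes differ between the GENCODE annotation and the count table. With exons cut at the ends given in the count table, an alternative chosen after seeing the data, *Smad4* kept 61.4% of its exon length and moved from rank 6 to rank 4, at 18.7, just above *Tgfbr2*, whose range over the libraries it overlapped, and *Smad2* at 6.87 passed *Smurf2* at 6.61. The ranks of *Ski*, *Skil*, *Tgfbr1*, *Smad7* and *Smad3* did not change. *Ski* stood above all others and *Smad3* below all others in every library. Among all tested genes, the per-length level of *Ski* was at the 94.1 percentile and that of *Smad3* at the 38.9 percentile. The receptor-regulated Smads were thus less abundant at the RNA level than the corepressors that bind them, in both genotypes, on this scale.

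The remaining genes of the pathway were taken from lists of 73 genes, of which 64 were tested. By edgeR, 0 of the 64 had an adjusted p below 0.05 and 8 had an unadjusted P below 0.05 (12.5%, against 9.3% of all tested genes), 5 higher and 3 lower in KO iT_regs_, a share near that of all genes. DESeq2 gave 0 adjusted and 7 unadjusted, and voom gave 2 adjusted, of 95 over the whole table, and 10 unadjusted. With the replicate number as a block, 2 of the 64 had an adjusted p below 0.05, of 87 over the whole table. Of the 64 log2 fold changes, 38 were positive and 26 negative, with a median of 0.01. The genotypes did not overlap in 1 of the 64 genes with KO higher and in 1 with KO lower. Of all tested genes, 2.25% and 2.63% did so. The unadjusted count was 4 without KO replicates 1 and 4, and 5 without either of them alone. The shares of all tested genes below 0.05 in these alternatives are not given here. With a fold change of at least 1.2 added, 393 genes of the whole table passed with all libraries. This became 235 without KO replicates 1 and 4, 302 without KO replicate 1 and 310 without KO replicate 4.

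In the list of ligands, latency and activation, 9 of 14 genes were tested. *Tgfb1*, the main TGF-β ligand gene of lymphocytes, had 359 to 384 normalized CPM in controls and 358 to 375 in KO libraries, and *Tgfb3* was between 0.567 and 1.57 in the 8 libraries. *Lrrc32* encodes GARP, which holds latent TGF-β on the surface of activated T_regs_. It had 116, 118, 102 and 107 normalized CPM in controls 1 to 4 and 74.3, 100, 99.0 and 67.8 in KO replicates 1 to 4. No KO value reached the lowest control, with replicates 2 and 3 just under it and replicates 1 and 4 far under it. Such a separation with KO lower occurred in 2.63% of tested genes. EdgeR gave a log2 fold change of −0.38 (95% interval −0.57 to −0.18, unadjusted P = 7.66e-04, adjusted p = 0.102), which was −0.16 without KO replicates 1 and 4. The adjusted p was below 0.05 in 3 of 17 alternatives, over a range of 0.00947 to 1.00. These were voom (0.0274), the replicate block (0.0178) and leaving out KO replicate 2 (0.00947), which moved the log2 fold change to −0.47. *Furin*, which encodes the protease that cleaves the TGF-β precursor, had 611 ± 27.7 in controls and 664 ± 48.9 in KO iT_regs_ (SD, n = 4 each; edgeR unadjusted P = 0.0237, adjusted p = 0.441). KO replicates 1 and 4 held its 2 highest values, and the log2 fold change of 0.12 was 0.05 without them (edgeR unadjusted P = 0.433) and 0.10 without the library labelled WT3 (edgeR unadjusted P = 0.0644).

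Among other receptors of the superfamily, 10 of 12 genes were tested. By edgeR, 1 had an unadjusted P below 0.05, against 9.3% of all tested genes, and this was *Acvr2b*, an activin type II receptor. The count was 2 in several alternatives, among them voom and the replicate block, and 0 with at least 10 counts in every library. The level of *Acvr2b*, from 0.561 to 1.88 normalized CPM, rested on 8 to 30 counts per library. Its log2 fold change of 0.97 had a 95% interval of 0.24 to 1.71 (edgeR adjusted p = 0.343). Of the other Smads, *Smad1* and *Smad5*, which serve the BMP branch, were at 22.1 ± 0.969 and 39.2 ± 3.61 normalized CPM in controls and at 21.3 ± 1.64 and 35.1 ± 1.63 in KO iT_regs_ (SD, n = 4 each). *Smad5* had a log2 fold change of −0.16 (edgeR unadjusted P = 0.0397, adjusted p = 0.499). It was −0.12 without KO replicates 1 and 4 (edgeR unadjusted P = 0.203) and −0.22 without the library labelled WT3 (edgeR unadjusted P = 0.00467). *Smad6*, the second inhibitory Smad gene, was between 0.376 and 1.38 normalized CPM in the 8 libraries and overlapped between genotypes.

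All 21 regulators of receptors and Smads were tested, with a median log2 fold change of 0.01. *Strap*, whose protein binds receptors together with SMAD7, was at 281 ± 15.8 normalized CPM in controls and 256 ± 10.8 in KO iT_regs_ (SD, n = 4 each; edgeR unadjusted P = 0.00681, adjusted p = 0.269). *Pmepa1*, a TGF-β-induced inhibitor that sequesters receptor-regulated Smads, was at 95.4 ± 8.71 and 108 ± 16.2 (SD, n = 4 each; edgeR unadjusted P = 0.0438, adjusted p = 0.514). Its log2 fold change of 0.18 was −0.0098 without KO replicates 1 and 4, which held its 2 highest values, and 0.15 without the library labelled WT3 (edgeR unadjusted P = 0.109). Of the Smad partners and coactivators, 10 of 11 were tested. *Runx1*, which binds DNA beside Smads and acts with FOXP3, had 65.1, 64.7, 63.6 and 77.3 in controls and 86.7, 74.7, 76.2 and 86.6 in KO libraries. Control replicate 4 lay inside the KO range and the other 3 controls lay below it. *Runx1* had a log2 fold change of 0.26 (95% interval 0.12 to 0.40, edgeR adjusted p = 0.134). Its adjusted p was below 0.05 in 4 of 17 alternatives, over a range of 0.0154 to 1.00. These were voom (0.0416), the replicate block (0.0451) and the fits without control replicate 4 (0.0154, log2 fold change 0.33) and without KO replicate 2 (0.0430), and the log2 fold change was 0.16 without KO replicates 1 and 4.

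The non-Smad branch carries TGF-β signals through the kinase TAK1 to JNK and p38, and all of its 11 listed genes were tested. *Mapk8*, which encodes JNK1, had 42.4, 41.8, 41.7 and 40.2 normalized CPM in controls and 48.7, 44.1, 48.9 and 48.6 in KO libraries. The genotypes did not overlap, as in 2.25% of tested genes with KO higher, and KO replicate 2 lay closest to the controls. *Mapk8* was the 1 gene of the 11 with an unadjusted P below 0.05 by edgeR, against 9.3% of all tested genes. EdgeR gave *Mapk8* a log2 fold change of 0.20 (95% interval 0.07 to 0.32, unadjusted P = 0.00450, adjusted p = 0.222). Without KO replicates 1 and 4 it was 0.16 (edgeR unadjusted P = 0.0546). *Map3k7*, which encodes TAK1, was at 267 ± 14.6 in controls and 272 ± 9.66 in KO iT_regs_ (SD, n = 4 each), and *Mapk14*, which encodes p38α, was at 103 ± 5.65 and 107 ± 7.74.

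**Figure D2:**
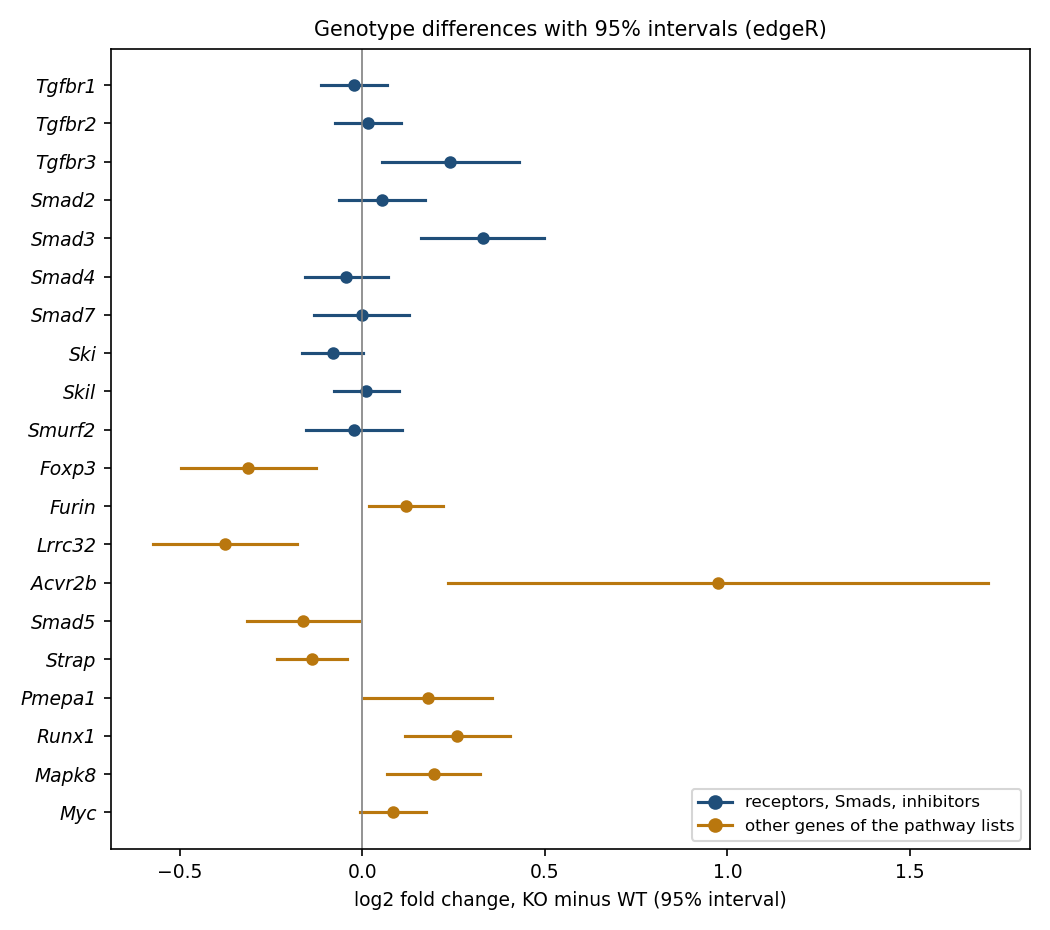
Log2 fold changes of KO relative to control iT_regs_ (horizontal axis) with 95% intervals from edgeR, for the 10 members in blue and for named genes of the other pathway and target lists in orange. The intervals of *Smad3* (0.16 to 0.50) and *Tgfbr3* (0.05 to 0.43) lie above 0 without passing the adjusted threshold, and those of the other 8 members include 0.

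Genes known to be raised or lowered by TGF-β in T cells were also compared between genotypes. Without a culture lacking TGF-β, their levels do not measure the response to it. *Foxp3*, whose exons partly overlap the noncoding RNA gene *Flicr* on its own strand and *Ccdc22*, *Ppp1r3f* and *Gm36995* on the other, had a log2 fold change of −0.31 and an adjusted p of 0.152 (edgeR). The adjusted p of *Foxp3* was below 0.05 in 4 of 17 alternatives, within a range of 0.0104 to 1.00. These were voom (0.0416), the replicate block (0.0161) and the edgeR fits without control replicate 4 (0.0337) and without KO replicate 2 (0.0104), and its log2 fold change was −0.15 without KO replicates 1 and 4. *Itgae* and *Cdkn1a*, 2 more genes raised by TGF-β, had log2 fold changes of 0.12 and 0.07, with adjusted p-values of 0.956 and 0.870 by edgeR.

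Of the 12 lowered genes 9 were tested, and 0 had an unadjusted P below 0.05 by edgeR or DESeq2 and 1 by voom, against 9.3% of all tested genes by edgeR. The unadjusted count depended on single libraries: it was 3 without control replicate 4, 2 without control replicate 2 and at most 1 in every other alternative. The shares of all tested genes in these fits are not given here. With a fold change of at least 1.2 added, 470 genes of the whole table passed without control replicate 4. This count was 404 without control replicate 2 and 393 with all libraries. The adjusted count of the list was 0 by all 3 tools. *Myc*, the most abundant of them per length, had 407, 416, 361 and 391 normalized CPM in controls and 429, 413, 417 and 411 in KO libraries. Control replicate 2 lay inside the KO range and the library labelled WT3 was lowest. *Myc* had a log2 fold change of 0.08 (95% interval −0.01 to 0.18, edgeR adjusted p = 0.586), which was 0.04 without the library labelled WT3. Of the T_H_1 genes of this list, *Stat4* was at 62.3 ± 10.6 normalized CPM in controls and 57.4 ± 2.50 in KO iT_regs_ (SD, n = 4 each). Its values were 68.1, 69.1, 65.5 and 46.6 in controls and 57.1, 58.6, 54.0 and 59.8 in KO libraries. Control replicate 4 was the lowest library, and the other controls lay above every KO library (edgeR unadjusted P = 0.209, adjusted p = 0.794). The largest log2 fold changes of the list were those of *Gzmb* (−0.96, edgeR unadjusted P = 0.0662, adjusted p = 0.585), whose highest value was in the library labelled WT3, and *Il2* (0.78, edgeR unadjusted P = 0.0685, adjusted p = 0.591), at 1.00 ± 0.580 and 1.73 ± 0.747 normalized CPM (SD, n = 4 each). Low levels were also found for *Tbx21*, at 1.97 ± 0.176 and 2.15 ± 0.927, and *Eomes*, at 2.37 ± 0.561 and 2.71 ± 0.566 normalized CPM in controls and KO iT_regs_ (SD, n = 4 each).

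The genes whose profile over the 8 libraries lay closest to that of *Smad3* were *Dmwd*, *Trib3*, *Zfp174*, *St6galnac6* and *Bloc1s4*, with root mean square differences of centred log2 CPM of 0.0672, 0.0688, 0.0719, 0.0750 and 0.0810. They were picked for likeness to *Smad3* over these same libraries, so their higher means in KO iT_regs_ come with the choice. *Trib3*, which encodes a pseudokinase induced by the transcription factor ATF4, was at 43.7 ± 2.43 normalized CPM in controls and 53.5 ± 1.22 in KO iT_regs_ (SD, n = 4 each). It was the 1 of these 5 with an adjusted p below 0.05 (0.0439, log2 fold change 0.29, edgeR). Leaving out any 1 library other than KO replicate 2 brought the adjusted p of *Trib3* to between 0.0516 and 0.199 (edgeR). Over all 17 alternatives the adjusted p ranged from 0.00673 to 0.759, while the log2 fold change stayed between 0.27 and 0.33. Around *Smad3*, 9 other tested genes lay within 500 kilobases on chromosome 9, and by edgeR 0 of them had an adjusted p and 2 an unadjusted P below 0.05, against 0.265% and 9.3% of all tested genes. *Aagab*, the tested gene next to it, had a log2 fold change of −0.01, and *Rpl4*, a ribosomal protein gene, was the 1 neighbour whose genotypes did not overlap (against 2.25% of tested genes with KO higher), with 2697 ± 76.9 and 2893 ± 38.0 normalized CPM (SD, n = 4 each; edgeR unadjusted P = 0.00588, adjusted p = 0.252).

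Markers of cell identity were compared between libraries beside these results. All 5 T cell markers were present, summing to between 1124 and 1239 normalized CPM per library, with *Cd4* the most abundant. All 6 T_reg_ markers were present, led by *Il2ra*, and summed to 3690, 3581, 3717 and 3582 in controls 1 to 4 and to 3361, 3476, 3436 and 3364 in KO replicates 1 to 4. Every KO library had the lower sum, with replicates 1 and 4 lowest. Of these 6 genes, 5 had the lower mean in KO libraries, and 4 of them (*Il2ra*, *Foxp3*, *Ikzf4* and *Ikzf2*) had an unadjusted P below 0.05 by edgeR, as 9.3% of all tested genes did, while *Ctla4* had the higher mean. None of the 6 passed after adjustment (edgeR adjusted p = 0.152 for *Il2ra* and *Foxp3*, 0.418 for *Ikzf4* and 0.433 for *Ikzf2*). *Il2ra*, with a mean of 2268 in controls and 2076 in KO libraries, was the 1 of the 6 whose genotypes did not overlap, against 2.63% of tested genes in this direction. The 2 CD8 T cell markers summed to 9.93, 8.08, 21.8 and 7.72 in controls and 6.68, 7.15, 6.76 and 8.35 in KO libraries, so that the library labelled WT3 held the highest value. *Cd8b1* had the higher mean of these 2 genes, but in the library labelled WT3 *Cd8a* (11.3) exceeded *Cd8b1* (10.5). The part of these differences in the results for *Smad3*, *Tgfbr3* and *Lrrc32* was not tested.

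Markers of other cells were low. B cell markers (3 of 5 analysed, *Cd79b* the most abundant) summed to at most 3.71 normalized CPM, in the library labelled WT3, where *Pax5* was at 1.61 and at no more than 0.425 in any other. *Pax5* and *Cd79a* were at 0 in at least 1 library. Myeloid markers (2 of 6, *Cd68* the most abundant) summed to at most 2.11, with *Lyz2* at 0.653 and 1.22 in KO replicates 1 and 4 and at 0 in the other 6 libraries. Dendritic cell markers were represented by *Zbtb46* alone (1 of 3), at 6.93 ± 0.718 in controls and 5.41 ± 0.812 in KO libraries (SD, n = 4 each; edgeR unadjusted P = 0.0417, adjusted p = 0.507). Its part in the results was not tested. Markers of platelets, endothelium or fibroblasts (2 of 4) summed to between 20.7 and 31.5, nearly all of it *Pecam1*, which T cells also express, with *Col1a1* at 0 in at least 1 library. Of the 2 NK cell and 4 erythroid markers, 0 were among the listed genes, so these lists gave no values.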

How the data were processed

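RNA of 8 iT_reg_ cultures was sequenced, 4 per genotype. The study's methods give 3 biological replicates per group from independent mice, whereas the labels give 4. All 8 entered every comparison except the alternatives that left libraries out. The authors aligned reads to GRCm39 with STAR 2.7.8a, quantified genes in Partek Flow by an E/M algorithm, in which ambiguous reads are divided between genes, filtered the genes and deposited the estimated counts without normalization. The annotation version and strandedness were not given in the sources used here.

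After rounding to whole numbers, genes were filtered with filterByExpr (minimum count 10), which left 11317 of 11911, normalized by TMM and tested for genotype in edgeR 4.0.16 (quasi-likelihood, two-sided, R 4.3.3). Adjusted p-values are Benjamini-Hochberg values over the whole table of tested genes. Single genes were also compared by a two-sided exact permutation test over the 70 arrangements of the libraries on log2(CPM + 0.5), whose smallest p is 0.0286. The alternatives were no filter, a minimum of 10 counts in each library, size factors of DESeq2 or library size alone as scaling, DESeq2 1.42.0, voom with quality weights (limma 3.58.1), the replicate number as a block, each library left out, and KO replicates 1 and 4 left out. DESeq2 on every listed gene, and exons cut at the gene ends of the count table for levels per length, were added after seeing the data. KO replicates 1 and 4 are the branch found by clustering these same libraries, so leaving out that pair is not independent of the data. That fit also has fewer KO libraries, which by itself raises p-values.

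The genes named were all members, *Tdrd3*, *Foxp3*, the genes of each list with an unadjusted P below 0.05 (or its most abundant gene per length), and the 5 genes most like the member with the smallest P. Other genes named from the lists were chosen after their values were seen. Of the listed genes 1 is not reported here, and it was taken out of its list after the analysis. The members and lists were chosen with earlier results of these data known. Exon lengths are unions of GENCODE M39 exons, found for 11910 of 11911 gene identifiers, and coordinates are those of the count table. A floor of 3 counts equals 0.188 to 0.225 CPM and covers counting error only. No libraries of a genotype were duplicates (chi-square per degree of freedom 2.59 to 6.32). The lowest values were those of KO replicates 1 and 4 (2.59) and control replicates 1 and 2 (2.70). The next lowest was 3.79, for KO replicates 2 and 3. The study's methods give fewer replicates per group than there are libraries, so whether any libraries shared a mouse cannot be told. Sample sizes given here count libraries. The scripts were tested on simulated data.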

Additional observations from a re-analysis of the deposited data

Results flagged for a closer look

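The genes examined here were the members, *Tdrd3*, *Foxp3*, list genes named for their P or level, and the genes most like *Smad3*. They made 52 groups of 4 libraries, 1 for each gene and genotype. Of these groups, 3 had a value far from the other 3, where chance alone marks about 1 group in 20. Genes named for other reasons, such as *Cd8a*, *Gzmb* and *Stat4*, were not examined in this way. *Smad4* was at 92.8 normalized CPM in control replicate 2, while the other controls were at 81.3, 82.8 and 81.4. *Runx1* was at 77.3 in control replicate 4, above the other controls at 65.1, 64.7 and 63.6. *Mapk8* was at 44.1 in KO replicate 2, below the other KO libraries at 48.7, 48.9 and 48.6.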

How the results depend on the processing

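The number of genes with an adjusted p below 0.05 over the whole table, 30, depended most on the processing. It was 81 with DESeq2, 80 with DESeq2 on every listed gene, 95 with voom, 3 without KO replicates 1 and 4, and 6 to 162 when 1 library was left out, lowest without KO replicate 1 and highest without KO replicate 2 (90 without control replicate 4). With the replicate number as a block it was 87, and the block moved no member past the threshold, but it moved *Lrrc32*, *Runx1* and *Foxp3*. Same-numbered libraries were not correlated in their deviations from the genotype means (−0.05 to 0.07), and 0 of 4 controls correlated best with their own number. The 393 genes past the figure cutoff of the study (unadjusted P below 0.05, fold change 1.2 or more) became 235 without KO replicates 1 and 4. The count of members past the adjusted threshold was 0 to 1 with 1 library left out, and that at an unadjusted P below 0.05 was 1 to 3, and 1 without KO replicates 1 and 4. The pathway count of 8 was 5 to 12 with 1 library left out and 4 without KO replicates 1 and 4.

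*Smad3*, *Smad2*, *Ski* and *Tgfbr3* kept their direction in all 17 alternatives. *Tgfbr3* ranged from 0.17 to 0.33 with 1 library left out and passed the adjusted threshold without KO replicate 2. With 1 library left out, *Tgfbr1* ranged from −0.042 to 0.0090, *Tgfbr2* from −0.0090 to 0.031, *Smad4* from −0.065 to 0.0026, *Smad7* from −0.047 to 0.021, *Skil* from −0.021 to 0.030 and *Smurf2* from −0.078 to 0.0078. Without KO replicates 1 and 4, *Tgfbr2* was at −0.021, *Smad7* at 0.028, *Skil* at −0.032 and *Pmepa1* at −0.0098. The cause was not tested.

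The order of *Tgfbr2*, *Tgfbr3*, *Smad4*, *Smurf2* and *Smad2* by level per length changed with the exon lengths used. The median log2 fold change of all genes stayed within 0.0022 of 0 in every alternative. *Acvr2b* gave no value with at least 10 counts in every library. The counts cover only listed genes, so they do not show the full sequencing depth. They do not separate transcripts, and RNA does not report the amount or phosphorylation of Smad proteins.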
